A study of Rattus norvegicus with 21 samples.

Results

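Compound E was compared with compound D in rat pancreatic islets kept for 24 h under glucolipotoxic (GLT) culture, the combination of high glucose and a saturated fatty acid. The libraries were chosen by their condition labels: 2 libraries with compound E, from preparations 1 and 2, and 3 with compound D, from preparations 1, 2 and 3, so 5 of the 21 libraries of the series. Islets of Sprague Dawley rats were pooled from 8 animals per preparation, and the 3 preparations were each divided over the culture groups. All islets compared here were in 27 mM glucose with 300 µM palmitate for 24 h, and each compound was given at 300 nM, so the single pair of compounds was compared at a matched dose and time. The 3 libraries of 24 h GLT alone (same glucose and palmitate, no compound) and the 3 h libraries of preparation 2 with each compound are given beside the comparison. D and E are code names, and their structures and targets are not given in the sources used here. The islet is a mixture of endocrine and other cells, and in bulk RNA fewer cells of a type and less RNA per cell cannot be told apart. The p-values measure only the spread between libraries of these pooled preparations.

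Beta cells fold and secrete large amounts of insulin in the endoplasmic reticulum (ER), and palmitate with high glucose is known to disturb ER folding and calcium. Cells answer unfolded ER protein by the unfolded protein response, which raises ER chaperones, and by the integrated stress response, which runs through the factors ATF4 and CHOP. High glucose also acts on beta cell genes through the glucose-sensing factor ChREBP, whose best known islet target is Txnip, the gene of thioredoxin-interacting protein.

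The 5 libraries held 25 to 34.4 M counts in genes, and 3 counts, taken as the detection floor, were worth 0.0804 to 0.144 CPM (counts per M counts assigned to genes, with libraries scaled by the trimmed mean of M values, TMM). A library of each group stood apart. The compound E library of preparation 1 had a median Spearman correlation over genes of 0.942 with the other 20 libraries, and the compound D library of preparation 2 had 0.947, against 0.972 to 0.977 in the other 3. The former was closest to the latter (0.976). The clock gene Clock, picked after its values were seen, stood in them at 3.12 CPM and 4.1 CPM, against 21.1 to 29.6 CPM in the other 3. Insulin transcripts took 42.6% and 43.3% of counts in these 2 libraries, 35.3% in the compound E library of preparation 2, and 11.7% and 10.0% in the compound D libraries of preparations 1 and 3. The ribosomal precursor Rn45s took 7.23% and 6.92% in compound D of preparations 1 and 3 and 1.56% to 2.38% in the other 3. The part of these library differences in the results was not tested, and the main counts are given with and without the libraries.

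Islets with compound E differed from islets with compound D in 378 of 12576 genes tested (3.01%), of which 230 (1.83%) were higher with compound E and 148 (1.18%) lower (edgeR quasi-likelihood test over all 21 libraries with a term per preparation, Benjamini-Hochberg adjusted p below 0.05). The median log2 difference was 1.41 among the higher genes and -1.16 among the lower. A change of at least 2-fold was seen for 264 of them (176 higher, 88 lower) and of at least 4-fold for 78 (63 higher, 15 lower). All 378 had the same sign in preparation 1 and in preparation 2, as 37.8% of all genes tested did. For 366 of them the 2 compound E libraries lay outside the range of the 3 compound D libraries, as for 23.3% of all genes. These counts describe genes chosen by the same contrast.

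Across all genes the pair differences of the preparations ran against each other (r = -0.2 across genes, which are not independent replicates), with a standard deviation of 1.13 in preparation 1 and 0.805 in preparation 2 on the log2 scale. Without the compound E library of preparation 1 the number of genes that passed fell to 46, 42 of them among the 378, and without compound E of preparation 2 it was 2798. Leaving out compound D of preparation 1 gave 136 genes. Without both libraries that stood apart 7 genes passed, all among the 378, and with a term for these 2 libraries 701 passed, 376 of them among the 378 (both settings were chosen after seeing the data). The direction of the 378 was kept wherever they could be tested, 377 of 377 without both libraries. All 378 had the same sign in both preparations of these same libraries, so this is no independent support. The split by direction rested on the scaling: by library size alone, which moved the median of all genes to -0.39, 58 genes were higher and 178 lower.

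**Figure D1:**
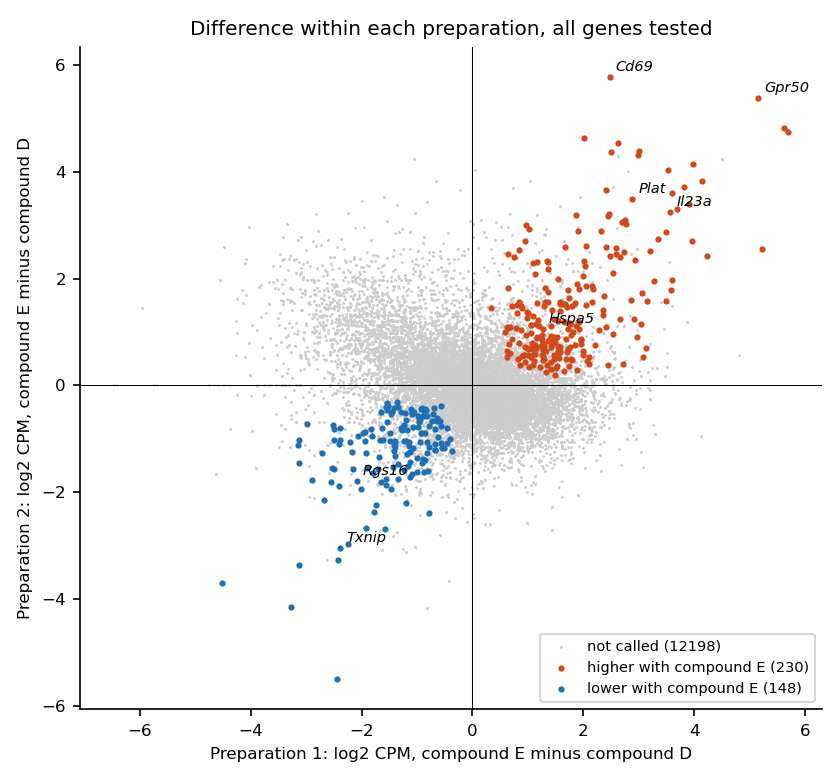
Each point is 1 of 12576 genes tested; the axes give compound E minus compound D in log2 CPM within preparation 1 (x) and preparation 2 (y). The 230 genes higher with compound E lie in the upper right and the 148 lower genes in the lower left, while the whole cloud of genes tilts the other way (r = -0.2).

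The largest rises with compound E were in genes of varied function. Il23a (gene ID 155140), the p19 subunit of interleukin 23, was at 5.83, 5.23 and 6.01 CPM in the 3 compound D libraries and at 69.9 and 50.03 CPM in the 2 with compound E. Its groups lay far apart with little spread within either, and the fitted log2 difference was 3.59 (SE 0.27, adjusted p = 2.28e-05). Plat (gene ID 25692), tissue plasminogen activator, was at 109, 83.0 and 199 CPM with compound D and at 808 and 928 CPM with compound E. The lowest compound E library was thus above the highest compound D library, with a log2 difference of 3.22 (SE 0.27, adjusted p = 3.64e-05). Plagl1, a zinc finger transcription factor, was at 13.8, 13.8 and 10.1 CPM with compound D and 75.6 and 125 CPM with compound E (log2 difference 2.93, SE 0.37, adjusted p = 0.00143).

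Anxa3, a calcium-dependent phospholipid-binding annexin, was at 1.79, 1.47 and 2.33 CPM with compound D and at 12.5 CPM in both compound E libraries, a log2 difference of 2.92 (SE 0.31). Ak8, an adenylate kinase, rose from 2.54, 2.68 and 2.95 CPM to 15.6 and 16.3 CPM (2.67, SE 0.31). These 2 genes varied little within each group. Il23a, Plat, Plagl1, Anxa3 and the amino acid transaminase gene Bcat1 were the 5 of the 74 named genes that also passed without both libraries that stood apart, and 15 of the 74 passed without compound E of preparation 1 alone.

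Gpr50, an orphan relative of the melatonin receptors, had 2, 2 and 12 counts in the compound D libraries and 97 and 188 with compound E, or 0.0627, 0.0864 and 0.322 CPM against 4.66 and 6.42 CPM. Its compound D libraries of preparations 1 and 2 were below the floor of 3 counts, so the fitted log2 difference of 5.24 (SE 0.82, adjusted p = 0.0031) depends on few reads on that side. Fst, the activin-binding protein follistatin, was at 0.971, 0.216 and 0.429 CPM with compound D and 6.34 and 6.56 CPM with compound E (3.66, SE 0.61). Tph1, the enzyme that starts serotonin synthesis outside the brain, lay below the level required for naming and was picked after its values were seen. It was at 0.0313, 0.0864 and 0.402 CPM with compound D and at 5.19 and 4.14 CPM with compound E (5.23, SE 0.88, adjusted p = 0.00345), and the 24 h GLT libraries had 6.82, 5.14 and 19.3 CPM.

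Other genes among the 14 with the largest rises were the drug efflux pump Abcb1a (3.12, SE 0.44), the collagenase Mmp13 (3.12, SE 0.61), the lymphocyte activation antigen Cd69 (3.66, SE 0.82), the monocyte-attracting chemokine Ccl7 (2.89, SE 0.74), the melanosome transport adaptor Mlph (3.04, SE 0.49) and the neuropeptide genes Cck (2.80, SE 0.48) and Tac1 (2.79, SE 0.45). Abcb1a was at 5.36, 1.43 and 10.6 CPM with compound D and at 30.8 CPM in both compound E libraries. Cd69 had 2 counts in compound D of preparation 2 and 76 and 97 in the other compound D libraries, so its low end rests on a library that stood apart. All 14 had both compound E libraries above all 3 compound D libraries, but they were chosen by this same contrast. Of all genes tested, 23.3% had the compound E libraries outside the range of the compound D libraries.

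**Figure D2:**
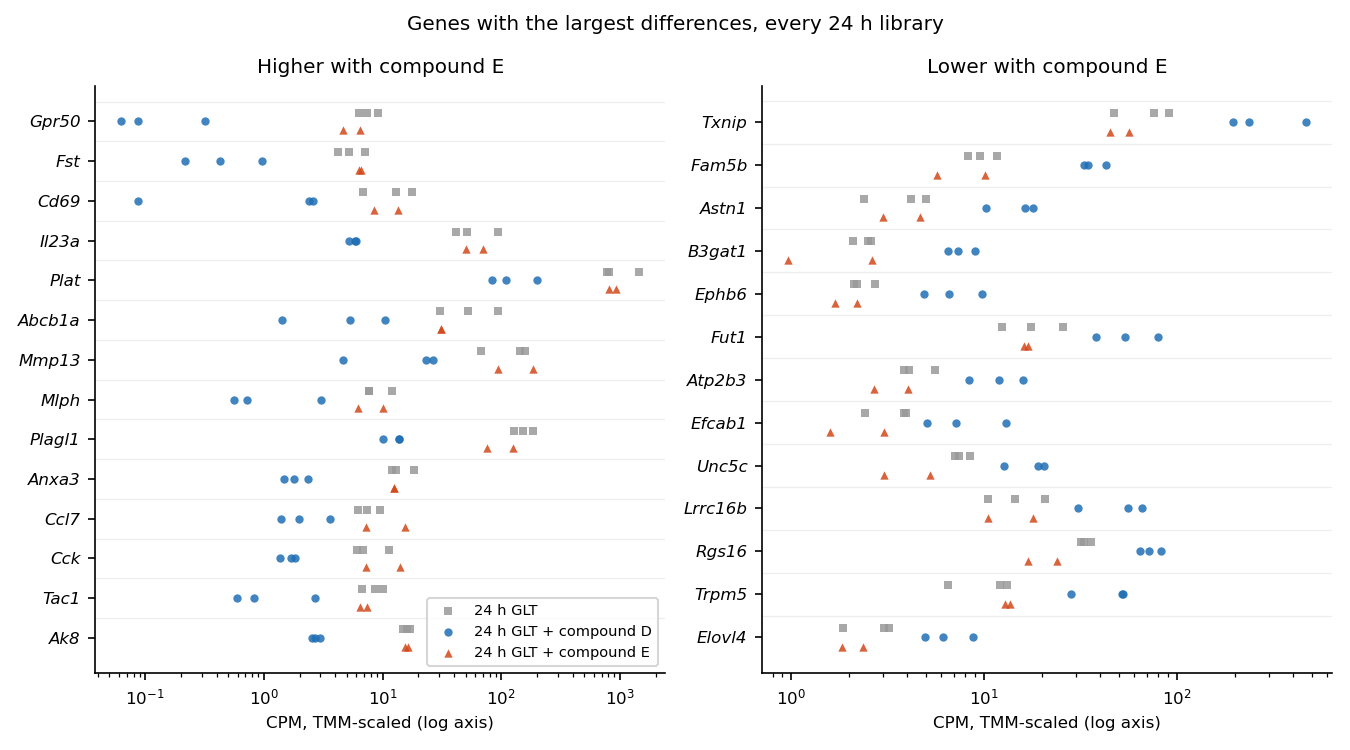
Levels in every 24 h library (CPM, log axis) of the 14 genes with the largest rise (left) and of 13 of the 14 with the largest fall (right) with compound E; grey squares are GLT alone, blue circles compound D and orange triangles compound E, 1 point per library. In each gene drawn the compound E points lie on 1 side of the compound D points, and so do the grey squares of GLT alone. The genes were chosen by the contrast of compound E with compound D.

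A set of ER chaperones and folding enzymes was higher with compound E. The gene lists here and below were written with earlier results of these data known. Their shares beside those of all genes are therefore descriptions, not independent support. Of 38 tested genes of ER chaperones, disulfide isomerases and ER-associated degradation, 10 rose and 0 fell (26.3%, against 3.01% of all genes), and the median log2 difference over the 38 was 0.57, against 0.00 over all genes. It was 0.91 in preparation 1 and 0.38 in preparation 2, and 26 of the 38 were higher with compound E in both, while 7 had a fitted difference below 0. Of all 12576 genes tested, 2299 were higher with compound E in both preparations and 2449 lower in both. The median stayed above 0 under each scaling tried (0.17 by library size alone), but the number that rose was 2 by library size alone, 1 without compound E of preparation 1 and 0 without both libraries that stood apart.

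Hspa5 (gene ID 25617), which encodes BiP, the main Hsp70 chaperone of the ER, was at 2688, 2717 and 2927 CPM with compound D and at 6468 and 5650 CPM with compound E. The 3 compound D libraries, including the library that stood apart, lay close together, and the log2 difference was 1.15 (SE 0.16, adjusted p = 0.00201). In 24 h GLT alone Hspa5 was at 6075, 5529 and 6259 CPM, within or close to the range of compound E. It was the ER list's only member that passed without compound E of preparation 1.

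P4hb, protein disulfide isomerase, was at 1269.6, 1282 and 1624 CPM with compound D and at 2852 and 2398 CPM with compound E (0.97, SE 0.15). Hsp90b1, the ER Hsp90 chaperone GRP94, was at 1609, 1466 and 1817 CPM and at 2759.9 and 3088 CPM (0.79, SE 0.18). Sdf2l1, a cofactor of BiP, was at 30.0, 57.8 and 30.4 CPM and at 174 and 113 CPM (1.91, SE 0.30). For each of these genes, picked among those that passed, both compound E libraries were above the 3 with compound D. Derl3, which moves misfolded protein out of the ER, had the largest difference of the list: 7.65, 12.9 and 7.99 CPM with compound D and 39.6 and 32.1 CPM with compound E (2.08, SE 0.31).

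The other members that rose were Creld2 (1.42, SE 0.29), the BiP co-chaperones Dnajb11 (0.99, SE 0.19) and Dnajc3 (0.94, SE 0.19), the disulfide isomerase Pdia4 (0.91, SE 0.16) and the Hsp70-related Hyou1 (0.73, SE 0.17). Several well known members did not pass: Calr, the calcium-binding chaperone calreticulin, had a log2 difference of 0.71 (adjusted p = 0.0659), and Xbp1, a transcription factor of the unfolded protein response, had 0.43 with a 95% interval of 0.07 to 0.79. The membrane chaperone Canx had -0.21. Of the 47 tested genes of ER translocation, glycosylation and COPII transport, 0 passed with edgeR, 19 had an unadjusted p below 0.05 and 7 passed with DESeq2. Over all genes tested, 18.4% had an unadjusted p below 0.05 and 841 of 12576 passed with DESeq2. The list's median was 0.31, and it was -0.06 by library size alone, where the median of all genes was -0.39.

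**Figure D3:**
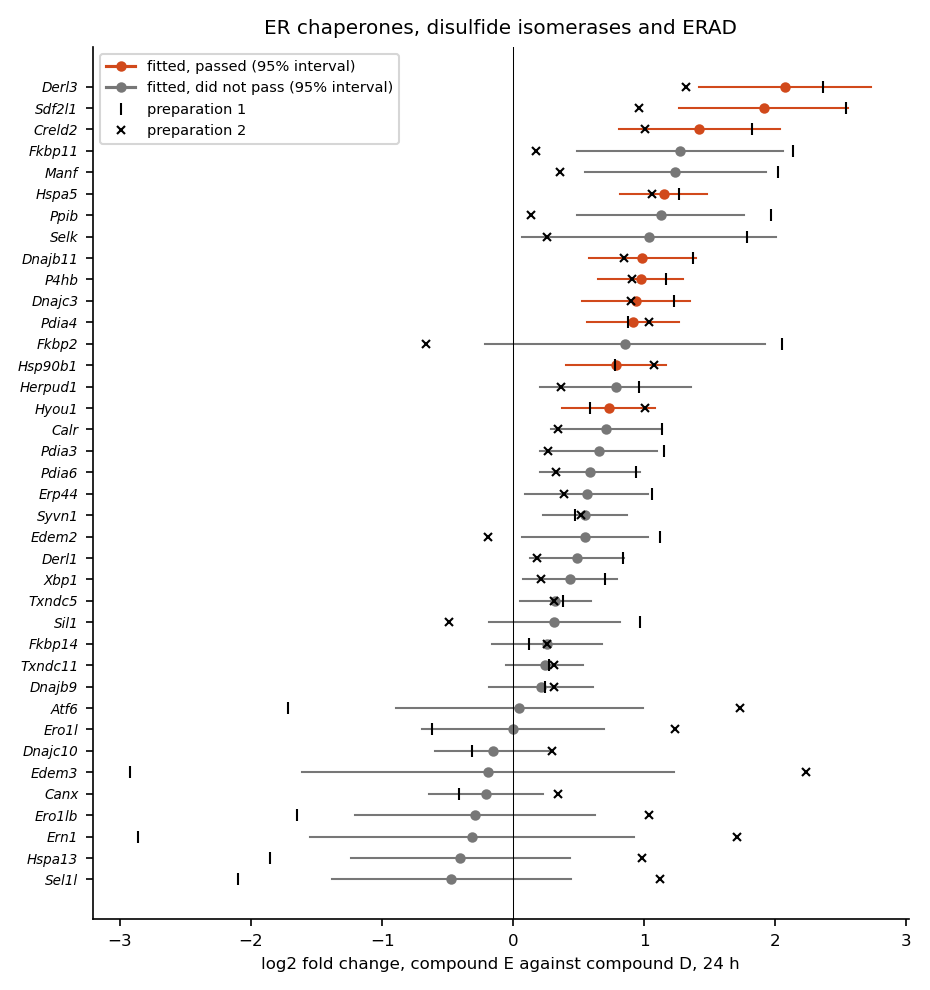
Fitted log2 difference (compound E against compound D, 24 h) with 95% interval for 38 genes of ER folding and degradation; orange marks the 10 that passed, bars and crosses the differences within preparations 1 and 2. The 10 lie between 0.73 (Hyou1) and 2.08 (Derl3) with both preparations above 0, while in members such as Edem3, Ern1 and Sel1l the preparations lie on opposite sides of 0.

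The promoters of 5 of these 10 genes hold the ER stress response element, CCAAT and CCACG with 9 bases of any kind between them, the textbook site of the unfolded protein response in chaperone promoters. They are shown because they set apart the members for which the letters are present, and they come from RefSeq (GRCr8, not the build the reads were mapped to), in the 250 bases before to 50 bases after the start. Each is printed in the direction of the gene with 15 bases on each side, and capitals mark the fixed letters of the element on either strand. The stretches are chr3:38452958-38453006 (+) for Hspa5, chr7:23012332-23012484 (-) for Hsp90b1, which holds 2 elements, chr15:102432519-102432567 (+) for Dnajc3, chr7:121789224-121789272 (+) for Creld2 and chr20:12766586-12766634 (-) for Derl3.
Hspa5: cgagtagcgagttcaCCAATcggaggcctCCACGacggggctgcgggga
Hsp90b1: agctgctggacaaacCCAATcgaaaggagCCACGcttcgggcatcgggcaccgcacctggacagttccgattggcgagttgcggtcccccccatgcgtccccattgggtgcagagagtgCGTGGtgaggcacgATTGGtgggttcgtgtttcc
Dnajc3: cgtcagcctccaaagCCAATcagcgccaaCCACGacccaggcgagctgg
Creld2: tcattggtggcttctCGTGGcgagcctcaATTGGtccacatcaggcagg
Derl3: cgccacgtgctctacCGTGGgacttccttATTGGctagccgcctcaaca

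Both strands were searched. The element was present in 19 of 27457 promoters of the table (0.0692%), in 16 of the 10175 tested genes that had a promoter there (0.157%), in 6 of 190 genes higher with compound E (3.16%) and in 0 of 109 genes lower. Of the 31 ER list members with a promoter, 9 held it, and 4 of those 9 did not pass (Calr, Canx, Ero1lb and Xbp1). The 6 genes are the 5 above and Zfand2a, an arsenite-inducible zinc finger gene outside the list (0.94, SE 0.15, adjusted p = 0.00348). A match is a description of the letters in this window. The carbohydrate response element, CACGNG given in both places with 5 bases between, was in 0 of 20 glucose-responsive list promoters. It was in only 4 of the 10175 tested genes with a promoter (0.0393%), so 0 of 20 tells nothing about the list. The cAMP response element TGACGTCA was in 4 of 22 immediate early promoters, 0 of them among the 4 members that passed, against 3.14% of tested genes.

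Of 45 integrated stress response genes tested, 5 rose and 3 fell (17.8%, against 3.01% of all genes), with a median of -0.12. Without compound E of preparation 1, or without both libraries that stood apart, 1 rose and 0 fell, and 5 rose and 1 fell without compound D of preparation 2. Ddit3, which encodes the stress factor CHOP, was at 31.8, 39.2 and 21.5 CPM with compound D and at 137 and 56.4 CPM with compound E (1.61, SE 0.33, adjusted p = 0.0166). The larger value is the library of preparation 1, so the difference was 2.10 in preparation 1 and 0.52 in preparation 2. Ppp1r15a, which encodes the phosphatase subunit GADD34, was at 83.6, 74.7 and 69.3 CPM and at 223 and 142 CPM (1.42, SE 0.26), and the stress-induced factor Atf3 was at 14.6, 8.9 and 7.91 CPM and at 48.9 and 28.0 CPM (1.93, SE 0.35).

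Bcat1, the cytosolic branched-chain transaminase, was at 12.8, 11.8 and 21.6 CPM with compound D and at 57.9 and 43.4 CPM with compound E (2.04, SE 0.21, adjusted p = 0.000291), and the C/EBP factor Cebpb also rose (2.07, SE 0.47). The 3 members that fell act in serine and one-carbon metabolism: Psat1 (-0.998, SE 0.22), Phgdh (-0.77, SE 0.18) and Aldh1l2 (-1.002, SE 0.25). Phgdh was at 53.7, 98.5 and 44.9 CPM with compound D and at 41.7 and 41.8 CPM with compound E, so its groups lay close and the highest compound D library was the one that stood apart. Asns, asparagine synthetase, did not pass (-0.53, adjusted p = 0.0733), and Atf4 itself was at 447, 599 and 468 CPM with compound D and 627 and 480 CPM with compound E (0.12, 95% interval -0.24 to 0.47).

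Some immediate early transcription factors, genes induced fast by growth factor, calcium and stress signals, were higher with compound E. Of 33 tested, 7 rose and 1 fell (24.2%, against 3.01% of all genes), with a median of 0.81 (0.35 and 0.38 within preparations 1 and 2), and 3 rose by library size alone, where the median was 0.40. In both preparations 18 were higher and 8 lower, where 2299 and 2449 of all 12576 genes tested were. Klf4, a zinc finger factor, was at 3.01, 2.51 and 3.22 CPM with compound D and 15.9 and 8.17 CPM with compound E (2.13, SE 0.41). Fosl1, a Fos family member of AP-1, was at 1.94, 1.34 and 3.16 CPM and at 7.98 and 5.78 CPM (2.19, SE 0.35). The orphan nuclear receptor gene Nr4a2 was at 4.54, 2.76 and 3.81 CPM and at 9.76 and 13.7 CPM (1.83, SE 0.36).

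Junb (1.84, SE 0.44), Csrnp1 (1.80, SE 0.42), Atf3 and Myc (1.15, SE 0.30) were the others that rose. Klf10, a TGF-beta-inducible zinc finger factor, fell from 40.8, 53.4 and 32.5 CPM to 17.2 and 17.9 CPM (-1.32, SE 0.31). Fos and Egr1, the most widely used members, did not pass: Fos was at 17.6, 3.5 and 7.51 CPM with compound D and 22.4 and 18.7 CPM with compound E (1.55, 95% interval 0.31 to 2.79), and Egr1 had a log2 difference of -0.09 with an interval of -1.34 to 1.17. Without compound E of preparation 1, 2 members of the list rose, and without both libraries that stood apart 0 did.

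Of 29 MAP kinase feedback regulators and targets 2 rose (6.9%, against 3.01% of all genes), the ERK phosphatase gene Dusp6 (1.09, SE 0.23) and the urokinase receptor gene Plaur (1.33, SE 0.25). Of 38 cAMP and G protein feedback genes 2 rose and 2 fell (10.5%). Rgs2, which shortens signalling of Gq-coupled receptors, was at 14.9, 13.2 and 18.7 CPM with compound D and at 53.8 and 38.8 CPM with compound E (1.76, SE 0.23). Its relative Rgs16 moved the other way, from 71.9, 82.7 and 64.4 CPM to 16.9 and 23.9 CPM (-1.83, SE 0.30). The protein kinase A inhibitor gene Pkib rose (1.55, SE 0.23), and the regulatory subunit gene Prkar2b fell (-0.77, SE 0.19). Without compound E of preparation 1, 0 of the MAP kinase list passed, and in the cAMP list 2 rose and 0 fell.

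Among 39 cytokine, chemokine and NF-kB target genes, Il23a, Cd69 and Ccl7 rose and 0 fell (7.69%, against 3.01% of all genes). The number was 1 without compound E of preparation 1, without compound D of preparation 2 or without both. The list's median of 0.34 turned to -0.04 by library size alone, where the median of all genes was -0.39. Among 47 activin, BMP and TGF-beta genes Fst rose, while the ligand gene Tgfb2 fell from 43.9, 30.0 and 28.7 CPM to 15.6 and 14.6 CPM (-1.25, SE 0.19) and the receptor gene Tgfbr1 fell from 116, 72.7 and 102 CPM to 40.1 and 55.9 CPM (-0.97, SE 0.24). Of 48 matrix genes 3 rose, among them Mmp13 and Col18a1, the basement membrane collagen that yields endostatin (1.33, SE 0.21). These were 6.38% of the activin, BMP and TGF-beta list and 6.25% of the matrix list, and 1 member of each rose and 0 fell without compound E of preparation 1.

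Some glucose-responsive genes were lower with compound E than with compound D. Of 27 tested, 6 fell and 1 rose (25.9%, against 3.01% of all genes), and the median was -0.41 (-0.83 in preparation 1 and -0.30 in preparation 2). In both preparations 12 were lower and 3 higher, where 2449 and 2299 of all 12576 genes tested were. Txnip (gene ID 117514) was at 235, 468 and 194 CPM with compound D and at 44.9 and 56.6 CPM with compound E. Every compound E library was below every compound D library, the highest being the compound D library that stood apart, and the log2 difference was -2.79 (SE 0.38, adjusted p = 0.0031). In 24 h GLT alone Txnip was at 76.5, 90.9 and 46.9 CPM, on the side of compound E.

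Arrdc4, an alpha-arrestin related to Txnip, was at 27.0, 20.2 and 24.3 CPM with compound D and at 5.1 and 11.6 CPM with compound E (-1.48, SE 0.33). Me1, the NADPH-forming malic enzyme, was at 325, 395 and 371 CPM and at 204 and 224 CPM (-0.77, SE 0.14). Rgs16 and Tgfb2 are also on this list, and the glycerol phosphate dehydrogenase gene Gpd1 rose (0.76, SE 0.20).

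The factor ChREBP itself (Mlxipl) had a log2 difference of -0.59 (95% interval -1.28 to 0.09), and the pyruvate kinase gene Pklr had -0.59 (-1.04 to -0.14), with adjusted p of 0.356 and 0.158. Neither passed. By library size alone 5 members fell, without compound E of preparation 1 0 passed, and Txnip then kept its direction, its log2 difference over all alternatives lying between -3.13 and -2.55.

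Of 40 glycolysis and hypoxia genes Ldhb (1.39, SE 0.29) and Gpi (1.09, SE 0.26) rose, while the phosphofructokinase gene Pfkm fell from 92.2, 122 and 84.2 CPM to 67.0 and 69.9 CPM (-0.62, SE 0.16). These were 7.5% of the list, against 3.01% of all genes, and 0 passed without compound E of preparation 1. The list's median was 0.61 (0.47 in preparation 1 and 0.60 in preparation 2), and it was 0.14 by library size alone. Acot2, a mitochondrial acyl-CoA thioesterase and PPAR-alpha target, was at 10.6, 14.8 and 11.0 CPM with compound D and at 54.4 and 39.7 CPM with compound E (1.86, SE 0.24). It was the only one of 40 fatty acid oxidation and PPAR target genes that passed (2.5%, against 3.01% of all genes), and their median was -0.04. Of 72 respiratory chain genes 1 passed (1.39%), the complex IV subunit gene Cox5b (1.60, SE 0.39), and 71 had a fitted difference above 0. Their median of 0.68 came from opposite values in the preparations, 1.49 in preparation 1 and -0.21 in preparation 2, and was 0.11 without compound E of preparation 1.

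Some genes of excitability and calcium handling were lower with compound E. Of 61 tested channel genes 4 fell and 0 rose (6.56%, against 3.01% of all genes that passed and 1.18% that fell), with a median of -0.36 (-0.90 in preparation 1, -0.02 in preparation 2). Trpm5, a calcium-activated cation channel of beta cells, was at 51.7, 52.5 and 28.1 CPM with compound D and at 12.8 and 13.6 CPM with compound E (-1.77, SE 0.39). Kcnn2 (-1.60, SE 0.23) and Kcnn3 (-1.42, SE 0.33), calcium-activated potassium channels of small conductance, fell with it.

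Atp2a3, the ER calcium pump SERCA3, was at 1465, 1778 and 1307 CPM with compound D and at 693 and 791 CPM with compound E (-0.98, SE 0.22). The plasma membrane calcium pump gene Atp2b3, among the 14 largest falls, was at 15.98, 11.9 and 8.34 CPM and at 2.69 and 4.03 CPM (-1.93, SE 0.33). In both pump genes the groups were well apart. Without compound E of preparation 1, 0 of the 61 channel genes passed, and without compound D of preparation 2, 1 did.

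Of 33 genes of beta cell identity and function 2 rose and 2 fell (12.1%, against 3.01% of all genes), with a median of -0.18, and 0 passed without compound E of preparation 1. Iapp, which encodes the amyloid polypeptide secreted with insulin, was at 3236, 4397 and 2742 CPM with compound D and at 6485 and 6536 CPM with compound E (0.85, SE 0.21, adjusted p = 0.0442). Rfx6, an endocrine transcription factor, was at 67.9, 64.1 and 75.0 CPM and at 41.0 and 40.2 CPM (-0.80, SE 0.17). The other 2 were the vesicular glutamate transporter gene Slc17a6 (2.07, SE 0.43), at no more than 3.12 CPM in any of the 5 libraries, and Trpm5. Iapp and Slc17a6 did not pass by library size alone.

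The hormone genes did not pass, and their intervals were wide. Ins1 had a log2 difference of 1.22 (95% interval -0.27 to 2.72) and Ins2 of 1.22 (-0.13 to 2.57), with pair differences of 2.93 and 2.47 in preparation 1 and -0.43 and -0.61 in preparation 2. Gcg, the glucagon gene, had 0.10 (-0.46 to 0.65), which lies within a 2-fold change either way. Sst, the somatostatin gene, had 0.67 (-0.51 to 1.84) and Ppy, the pancreatic polypeptide gene, 1.25 (-0.18 to 2.67). The beta cell factors Pdx1 (-0.16, interval -0.77 to 0.45) and Nkx6-1 (-0.05, interval -0.56 to 0.45) had intervals within a 2-fold change either way.

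The remaining large falls were likewise in genes of varied function. Fut1, a fucosyltransferase that builds the H antigen, was at 54.0, 79.4 and 38.1 CPM with compound D and at 16.2 and 16.8 CPM with compound E (-1.96, SE 0.24, adjusted p = 0.00143), the smallest adjusted p among the falls named. Fam5b, a gene of the astrotactin-related BRINP family, was at 43.0, 34.8 and 32.8 CPM and at 5.72 and 10.2 CPM (-2.16, SE 0.33). Astn1 (-2.05, SE 0.29), a neuronal adhesion gene, the glucuronyltransferase gene B3gat1 (-2.05, SE 0.38), the kinase-dead ephrin receptor gene Ephb6 (-2.01, SE 0.31), the netrin receptor gene Unc5c (-1.90, SE 0.32), the actin-capping regulator gene Lrrc16b (-1.86, SE 0.42), Efcab1 (-1.92, SE 0.45) and the very long chain fatty acid elongase gene Elovl4 (-1.70, SE 0.40) were also among the 14. All of them had both compound E libraries below the 3 with compound D, but they were chosen by this same contrast.

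Among 51 islet G protein-coupled receptor genes, Gpr50 and the alpha-2C adrenergic receptor gene Adra2c rose, and the GABA-B receptor subunit gene Gabbr2 (-1.32, SE 0.25) and Gprc5b (-0.67, SE 0.14) fell. Adra2c had 4, 0 and 2 counts with compound D and 63 and 34 with compound E. Of 47 cell cycle genes Ccnd3 (0.99, SE 0.19) and Mcm5 (1.48, SE 0.32) rose and Cdc25b fell (-1.31, SE 0.27). The shares that passed were 7.84% of the receptor list and 6.38% of the cell cycle list, against 3.01% of all genes. Without compound E of preparation 1, 1 receptor gene rose and 0 fell, and 0 cell cycle genes passed.

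Few members passed in 5 further lists. The clock repressor gene Nfil3 rose (1.06, SE 0.27) among 21 clock genes, Abcb1a among 28 efflux genes, and the lysosomal alpha-galactosidase gene Gla (0.95, SE 0.16) among 47 lysosomal genes. The co-chaperone gene Bag2 rose (0.84, SE 0.16) and Hspa12a fell (-1.89, SE 0.45) among 42 heat shock genes, and Me1 fell among 42 NRF2 and antioxidant genes. The shares that passed were 4.76% of the clock list, 3.57% of the efflux list and 2.13% of the lysosomal list. They were 4.76% of the heat shock list and 2.38% of the NRF2 list, all near the 3.01% of all genes. In the cholesterol (32 genes), prohormone and exocytosis (38), metallothionein and zinc transporter (20), interferon (41) and proteasome (39) lists 0 passed with edgeR, with 5, 11, 6, 4 and 2 genes at an unadjusted p below 0.05, and 1, 5, 1, 2 and 1 passed with DESeq2. Over all genes tested, 18.4% had an unadjusted p below 0.05 and 841 of 12576 passed with DESeq2. Mt1a, a metallothionein, was at 215, 205 and 161 CPM with compound D and at 1060.1 and 949.7 CPM with compound E, groups that did not overlap, but did not pass (2.27, SE 0.84, adjusted p = 0.168).

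**Figure D4:**
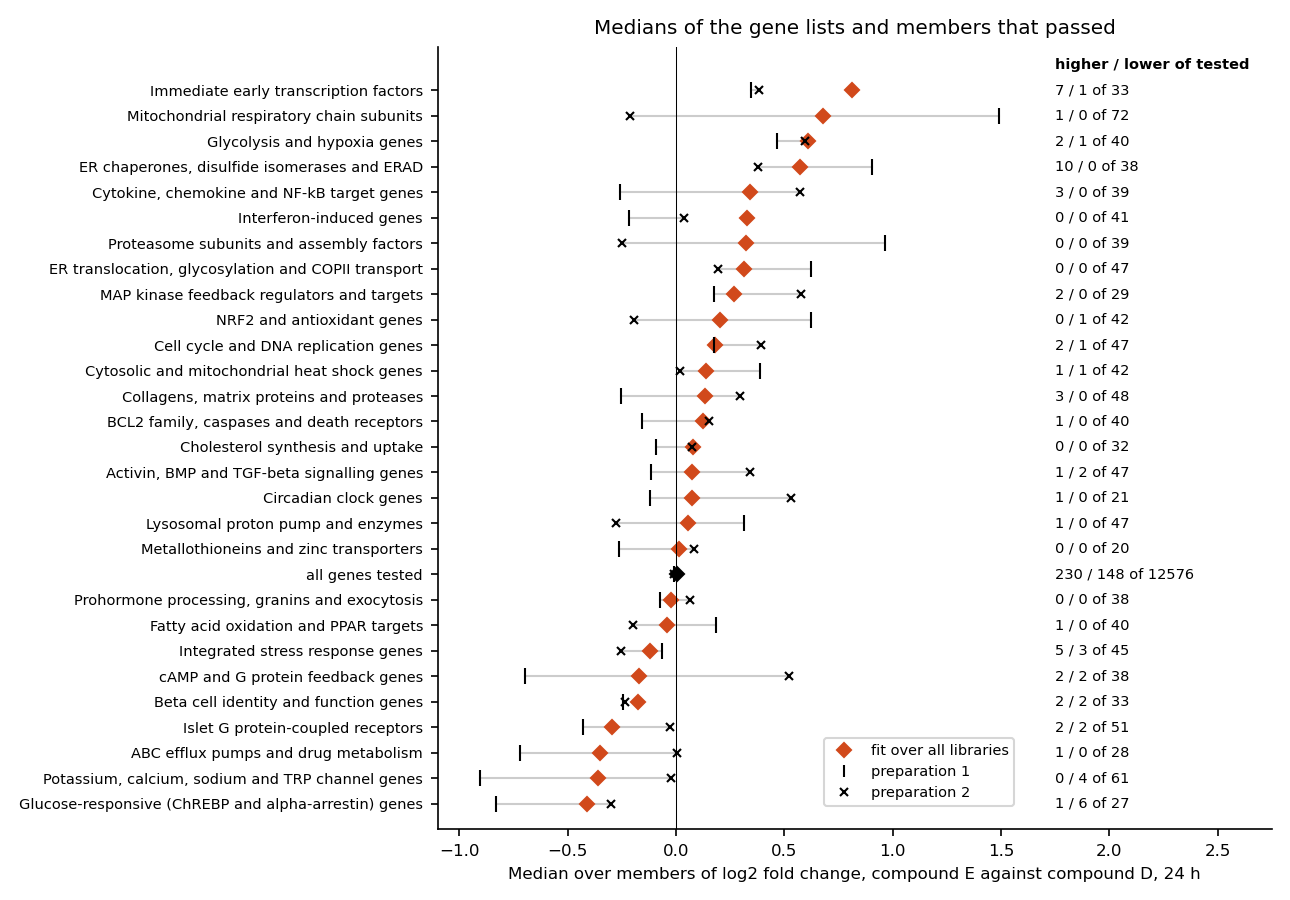
Median log2 difference (compound E against compound D, 24 h) over the tested members of each of the 28 gene lists and over all genes (black); bars and crosses give the medians within preparations 1 and 2, and the right column the members that passed higher and lower. The ER list (10 higher, 0 lower of 38), the immediate early list (7 and 1 of 33) and the glucose-responsive list (1 and 6 of 27) lie on 1 side of 0 in both preparations, and the respiratory chain list does not. Further lists with few or 0 members that passed do so too, among them glycolysis and hypoxia (0.47 and 0.60), ER transport (0.62 and 0.19) and beta cell identity (-0.24 in each).

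The marker lists of other cell types overlapped between the groups. Of the 10 marker lists (alpha, delta, PP, acinar, duct, endothelial, stellate, macrophage, Schwann and red cell), 0 of the genes tested passed with edgeR, and 3 had an unadjusted p below 0.05. Over all genes tested, 18.4% had an unadjusted p below 0.05. The ranges of the summed levels overlapped between the groups in all 10 lists, for example for the 11 duct genes (859 to 1160 CPM with compound D and 1140 to 1360 CPM with compound E). In the alpha, delta, PP, acinar and endothelial lists the overlap rested on compound D of preparation 2, which stood apart. Compound D of preparations 1 and 3 lay below both compound E libraries there, as in the delta list (852 and 571 CPM against 3610 and 1930 CPM). The other lists overlapped without that library too. The 10 alpha cell genes summed to 17500 to 35700 CPM with compound D and 27200 to 31800 CPM with compound E, the 14 macrophage genes to 56.3 to 146 CPM and 92.5 to 146 CPM, and the 13 acinar genes to 43 to 139 CPM and 74.1 to 98.3 CPM. Insulin took at least 10.0% of counts in each of the 5 libraries, which are labelled as primary islets, and the acinar protease gene Prss1 stood at 0.161 to 1.38 CPM.

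At most of the 378 genes, islets under GLT with no compound lay nearer to compound E than to compound D. In preparation 1 the GLT library lay nearer compound E for 313 of the 378 (82.8%, against 36.6% of all genes tested) and in preparation 2 for 348 (92.1%, against 78.9%). It lay nearer compound E in both preparations for 304 (80.4%, against 27.3%) and nearer compound D in both for 21 (5.56%, against 11.8%). For 324 of the 378 the compound E and GLT libraries were together all outside the range of the compound D libraries (85.7%, against 11.2% of all genes), but the choice of the 378 already favours compound E libraries outside that range. Among genes with the compound E libraries outside it, the GLT libraries were outside too for 324 of 366 that passed (88.5%) and for 1408 of 2929 in all (48.1%), and compound D libraries enter both sides of this count. The share over all genes is high in preparation 2, where the compound D library stood apart, and low in preparation 1, where the compound E library did.

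The 21 genes where GLT alone lay nearer compound D in both preparations comprised 8 that were higher with compound E and 13 that were lower. Isyna1, which makes inositol phosphate from glucose phosphate, was at 90.8, 146 and 95.5 CPM with compound D, 258 and 184 CPM with compound E and 134, 151 and 136 CPM in GLT alone. Slc1a5, a glutamine transporter gene, was at 9.71, 13.99 and 11.8 CPM, at 24.9 and 18.2 CPM, and at 14.2, 15.1 and 27.4 CPM in the same order. Plaur, Mcm5, Tgfbr1 and Aldh1l2, described above, were also among the 21, which were named after their values were seen. In Isyna1 both compound E libraries were above the GLT and compound D libraries, but in Slc1a5 the GLT library of preparation 3 was the highest of all.

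At 3 h a single library per compound, both of preparation 2, allowed no test. The 3 h difference had the sign of the 24 h difference for 320 of the 378 genes (84.7%, against 54.6% of all genes tested), and its median in the 24 h direction was 0.274 log2 units, against 0.0321 over all genes. Of the 378, 64 were past 2-fold at 3 h in the 24 h direction and 0 in the other, where 4.45% of all genes were past 2-fold in either direction. Neither of the 2 libraries was among those compared at 24 h, but their islets came from the same preparation.

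Txnip stood at 922 CPM with compound D and 82.9 CPM with compound E at 3 h, a log2 difference of -3.47, and Rgs16 at 110 and 30.4 CPM (-1.85). Klf10 and Arrdc4 were also lower with compound E at 3 h, by -1.68 and -1.86. Of the 8 immediate early genes that passed, 5 were further apart at 3 h than at 24 h in the same preparation and 3 were closer. Nr4a2 was at 6.55 and 71.8 CPM (3.44, against 2.28 at 24 h) and Klf4 at 10.5 and 59.8 CPM (2.50, against 1.68), while the log2 difference of Fosl1 was 1.10 at 3 h against 2.05 at 24 h, that of Atf3 1.23 against 1.64 and that of Myc 0.23 against 1.35. Plagl1 was at 56.4 and 372 CPM and Ak8 at 3.53 and 15.1 CPM. By contrast Hspa5 (5064 and 5486 CPM) and Il23a (5.65 and 6.52 CPM) were close between the compounds at 3 h, with log2 differences of 0.12 and 0.20. The difference between the times was not tested.

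**Figure D5:**
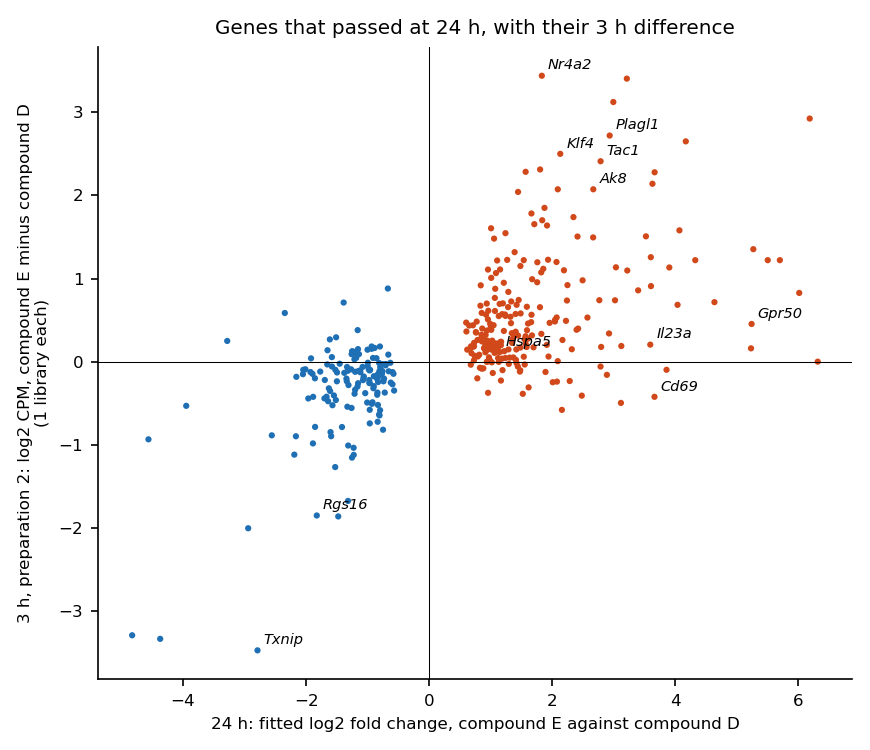
Each point is 1 of the 378 genes that passed at 24 h; the x axis gives the fitted 24 h log2 difference and the y axis the 3 h difference in log2 CPM in preparation 2 (1 library each). Nr4a2, Klf4, Plagl1 and Txnip are far from 0 at both times, and Il23a, Gpr50 and Hspa5 lie near 0 at 3 h.

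For most genes the compounds could not be told apart, and the precision of that statement is limited. Among the 12198 genes that did not pass, the 95% interval of the difference lay within 2-fold either way for 5947 (48.8%), and the median standard error over all genes was 0.30 on the log2 scale. For the remaining genes that did not pass, the interval reached a 2-fold difference in at least 1 direction. Fitted on the 5 libraries alone, with their own estimate of spread, 0 genes passed with edgeR and 240 had an unadjusted p below 0.05. With the 3 libraries of 24 h GLT added, 10 genes passed, all among the 378.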

How the data were processed

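Per the labels' protocols, TopHat2 2.0.3 with Bowtie2 2.0.0 was used by the authors to align 100 bp paired-end reads (build rn5), and HTSeq gave the totals per gene. The deposited values are raw counts per gene for 17025 genes; strand setting and annotation are not given in the sources used here, so overlapping and near-identical genes may share reads. The 5 entries that name no gene were left out (10.3% to 17.8% outside genes, 4.92% to 7.58% not unique and 0.668% to 2.07% ambiguous in the 5 libraries). All count columns matched a sample record (0 unmapped). Column names give the preparation: same-numbered libraries come from the same pooled islets, and their residuals correlated by 0.0698, 0.183 and 0.425 in preparations 1, 2 and 3, so preparation was a term in the fit.

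Counts were TMM-scaled, filtered with filterByExpr and fitted in edgeR 4.0.16 (R 4.3.3) over the 21 libraries, with condition and preparation as terms. Fold changes are log2 with standard errors from the fitted means and dispersions and 95% intervals. Per-library log2 CPM used a prior count of 2. DESeq2 1.42.0 and limma 3.58.1 (voom) were alternatives. The deposited sheet and the records name 6 libraries differently, none of them compared here. Of 1315 symbols in 28 pathway and 10 marker lists, 1254 matched. The members and lists were chosen with earlier results of these data known. Named genes were, among genes that passed with the same sign in both preparations and at least 5 CPM in a group, the 14 largest rises and 14 largest falls; up to 5 passing members per list by adjusted p (the 2 most abundant where 0 passed); and the hormone genes and Txnip. Not all 91 are described, some are not reported here, and further list members were named after their values were seen.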

Additional observations from a re-analysis of the deposited data

Results flagged for a closer look

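For 8 of the 74 named genes that passed at 24 h, the 3 h difference of preparation 2 (compound E minus compound D, log2 CPM, 1 library each) had the opposite sign to both 24 h pairs. The 3 h sign was that of the fitted 24 h difference for 320 of all 378 genes that passed (84.7%) and for 54.6% of all genes tested. An opposite sign is thus not particular to these 8. The difference between the times was not tested. Of the genes higher with compound E at 24 h, the 3 h value was -0.497 for Mmp13, -0.423 for Cd69, -0.240 for Derl3, -0.159 for Ccl7 and -0.0345 for Pkib. Of the genes lower at 24 h, it was 0.880 for Gprc5b, 0.1253 for Tgfb2 and 0.0399 for Efcab1. Gprc5b stood at 91.6 CPM with compound D and 169 CPM with compound E at 3 h.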

How the results depend on the processing

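The 378 genes kept their direction under all 26 alternatives in which they could be tested, as did the 74 named genes that passed. All 378 already had the same sign in both preparations, and the alternatives refit the same libraries. The kept direction is therefore no independent support. The number that passed (higher, lower) did not hold. It was 841 (504, 337) with DESeq2, 236 (58, 178) by library size alone, 184 (116, 68) in the 15 libraries that sheet and records name alike, 10 (9, 1) in the 8 libraries of 24 h GLT with and without compounds, and 0 (0, 0) in the 5 libraries compared or in the 4 paired ones. With a term for the split by ambiguous reads, 165 (107, 58) passed. The high side of that split held 2 compound D libraries and 0 compound E libraries, so it partly overlaps the compound contrast. Ambiguous reads were 2.07% and 2.05% in compound D of preparations 1 and 3. They were 0.668% to 0.866% in the other libraries compared. Without the replicate block for preparation, 149 (101, 48) passed, all among the 378. Leaving out a library or a preparation gave 0 to 4543 genes (0 to 2121 higher, 0 to 2422 lower); the lowest was without preparation 1, where 1003 had an unadjusted p below 0.05, and the highest without preparation 2. Where a group kept 1 library, it was assumed to vary like the others. Of settings chosen after seeing the data, leaving out both libraries that stood apart gave 7 (6, 1), a term for them 701 (392, 309), and crossed preparation numbers of the compound E libraries, whose residuals correlated with their compound D partners by -0.48 and -0.578, 688 (406, 282). The cause of these differences was not tested, and the settings also differ in how many libraries they hold. Voom, RLE factors, TMM without Ins1, Ins2 and Rn45s, the filters and a robust spread gave 327 to 392 genes. Leaving out the condition 3 library of preparation 2, a setting added later, gave 460. That library is not among the 5 compared but enters the shared fit. Its median Spearman correlation with the others was the lowest of all libraries (0.932), and 23.4% of its reads were not unique. Depth limits genes near the floor of 3 counts.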
